A study of Mus musculus with 912 samples.

Results

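The nuclei described here are hippocampal nuclei that carried the label CA1, the pyramidal field between CA3 and the subiculum. Of 912 nuclei in the series, 360 came from mice kept in the home cage (HC) or taken 1 h after an unfamiliar environment (NE), and 103 of these 360 had CA1 as predicted cell type in their labels. A minimum of 4000 genes above 1 on the log2(TPM+1) scale (TPM is a transcript level scaled to length and depth) left 100 CA1 nuclei of the 339 nuclei kept in the set. The CA1 nucleus closest above the minimum had 4981 genes and the one closest below it had 2685. Each nucleus was its own SmartSeq2 library.

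All mice were female C57BL6 wild types, and the mice that gave CA1 nuclei were 8.7 to 9 weeks old. Of the mice that gave DG sums, 1 h mouse 3 was 8.7, HC mouse 6 was 7.75 and HC mouse 7 was 8.57 weeks old, and all other mice were within the range of the CA1 mice. The 1 h mice spent 15 min in the NE and returned to the home cage for 1 h, whereas HC mice stayed in the home cage. Nuclei had been sorted by antibodies to PROX1, CTIP2 (the protein of Bcl11b) and FOS before sequencing. The CA1 nuclei came from 6 mice: 45 from 1 h mouse 2 and 27 from HC mouse 3, both sorted PROX1-CTIP2+, and 9 from 1 h mouse 4, 4 from HC mouse 4, 11 from 1 h mouse 10 and 4 from HC mouse 8, all sorted PROX1-CTIP2-. Of the 100 nuclei, 33 were 1 h FOS+, 32 were 1 h FOS- and 35 were HC. Both mice of the PROX1-CTIP2+ sort shared 1 batch date, which no other mouse had, so this sort and its date cannot be told apart.

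CA1 pyramidal neurons are glutamatergic cells that receive input from CA3 through the Schaffer collaterals and send output to the subiculum and the cortex. They are not uniform along the axes of the hippocampus, and genes such as Wfs1 and Dcn are known to mark different positions within the field. CTIP2 is a zinc finger transcription factor of CA1 pyramidal and dentate granule neurons, and PROX1 is a homeobox factor of granule neurons and of a class of interneurons that includes VIP cells. A PROX1-CTIP2+ sort is therefore aimed at CA1.

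Total count per CA1 nucleus ranged from 343713 to 2584145 with a median of 1261892.5, and the median number of genes above 1 was 6739.5. Median totals were 1234561 in 79 nuclei of the dentate gyrus (DG), 1293488 in 27 of CA3, 969779.5 in 38 of the subiculum (Sub) and 560046 in 67 VIP interneurons. Limits on a fold change drawn from absent counts cover counting error only. The labels had been given by the authors from the same transcriptomes, with a classifier that used 51 genes. Comparisons between labelled types therefore describe the CA1 profile and do not test the labels, whereas the sort used no RNA.

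Some libraries lacked markers of their labels. Among the 9 nuclei labelled CA1 in 1 h mouse 4, Bcl11b and Pou3f1 were above 1 log2(TPM+1) in 0 of 9, Fibcd1 in 2 of 9 and Wfs1 in 3 of 9. The CA3 markers Grik4, Trps1 and Bok were above 1 in 9, 5 and 4 of these 9 nuclei, and in 54.0%, 18.0% and 7.0% of all CA1 nuclei. The mean level of 6 CA3 markers was at most 1.82 in any CA1 sum, against at least 2.72 in CA3 sums. These 9 nuclei were of the PROX1-CTIP2- sort, which selects against the protein of Bcl11b. Among CA1 nuclei of the same sort, Bcl11b was above 1 in 5 of 11 in 1 h mouse 10. It was above 1 in 2 of 4 in HC mouse 4 and in 2 of 4 in HC mouse 8. In the same order of mice, Pou3f1 was above 1 in 4, 1 and 3 nuclei. Whether the sort accounts for the lack of Bcl11b in 1 h mouse 4 was not tested. Counts are given below with and without the CA1 sum of 1 h mouse 4. In addition, the VIP nuclei of 1 h mouse 2 and of HC mouse 4 of the PROX1-CTIP2- sort, 2 nuclei each, had Vip and Prox1 at 0.

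The 4 CA1 markers were Bcl11b, Wfs1 (wolframin, a membrane protein of the endoplasmic reticulum), Fibcd1 (a transmembrane receptor with a fibrinogen-like domain) and Pou3f1 (a POU domain transcription factor). Levels below are means of log2(TPM+1) over the nuclei of a mouse. In the GRCm38 annotation Bcl11b lies on chromosome 12 from 107910403 to 108003602, Wfs1 on chromosome 5 from 36966104 to 36989205, Fibcd1 on chromosome 2 from 31813290 to 31846005 and Pou3f1 on chromosome 4 from 124656807 to 124660655.

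Wfs1 ranged from 1.75 to 6.73 over the 6 CA1 mice, with a median level of 2.82. Its levels were 0.896, 0.469 and 0 in the 3 DG mice, 1.19, 1.40 and 2.34 in the 3 CA3 mice and 0.786, 1.70, 2.79, 3.68 and 0.806 in the 5 Sub mice. In 6 VIP mice it ran from 0 to 1.10 with a median of 0.604. CA1 mice were all above DG and VIP mice, and overlapped with CA3 and Sub.

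Fibcd1 had a lowest CA1 level of 0.498, a median of 2.56 and a highest level of 4.22. Sub mice gave 0.0618, 1.34, 0.165, 0.041 and 0, CA3 mice 0.635, 0.167 and 0.115, and DG mice 0.804, 0.470 and 0.783. In each of these types only the CA1 sum of 1 h mouse 4 stood within or below the range of the other type, apart from the single Sub level of 1.34, which also lay above the CA1 level of HC mouse 8.

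Pou3f1 ran from 0 to 3.18 in CA1 with a median of 1.47. It was 0 in all 3 DG mice, 0.565, 0.906, 0.921, 1.69 and 0.384 in Sub mice, and at most 0.314 in CA3 and 0.136 in VIP mice. The CA1 level of 0 belonged to 1 h mouse 4.

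Bcl11b was not highest in CA1. Its CA1 levels ran from 0.14 to 2.84 with a median of 2.19, and its DG levels were 1.57, 3.61 and 3.78. The DG and CA1 ranges overlapped. CA3 levels were 0.335, 0.419 and 0, and Sub levels were 1.70, 1.17, 0.153, 1.32 and 0.123.

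**Figure D1:**
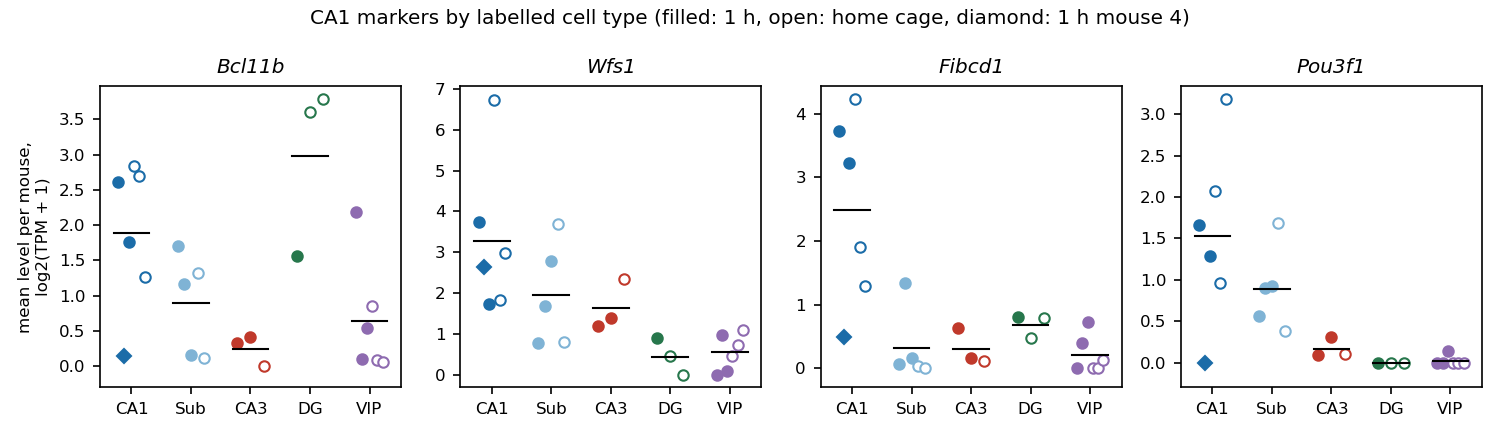
Mean level per mouse in log2(TPM+1) of Bcl11b, Wfs1, Fibcd1 and Pou3f1 in nuclei labelled CA1, Sub, CA3, DG and VIP; filled points are 1 h mice, open points HC mice, the diamond is 1 h mouse 4 and lines are means over mice. The mean is highest in CA1 for Wfs1, Fibcd1 and Pou3f1 and highest in DG for Bcl11b.

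In single nuclei, each marker was missing from many CA1 nuclei and seldom occurred with another outside CA1. Bcl11b was above 1 in 54.0% of the 100 CA1 nuclei, Wfs1 in 57.0%, Fibcd1 in 54.0% and Pou3f1 in 46.0%. Fibcd1 was above 1 in 2.6% of Sub, 3.7% of CA3 and 12.7% of DG nuclei. Wfs1 was above 1 in 39.5% of Sub and 22.2% of CA3 nuclei. Pou3f1 was above 1 in 26.3% of Sub nuclei, and Bcl11b in 23.7% of Sub and 45.6% of DG nuclei. At least 2 of the 4 markers were above 1 in 69.0% of CA1 nuclei, against 23.7% of Sub, 7.6% of DG, 3.7% of CA3 and 1.5% of VIP nuclei. No marker was above 1 in 13 CA1 nuclei and all 4 in 17. By mouse, the share with at least 2 was 77.8% in 1 h mouse 2, 88.9% in HC mouse 3, 75.0% in HC mouse 8, 45.5% in 1 h mouse 10, 25.0% in HC mouse 4 and 11.1% in 1 h mouse 4. The mice of the PROX1-CTIP2+ sort had the highest shares. VIP nuclei were the shallowest, and a missed transcript and a lower level cannot be told apart in 1 nucleus.

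**Figure D2:**
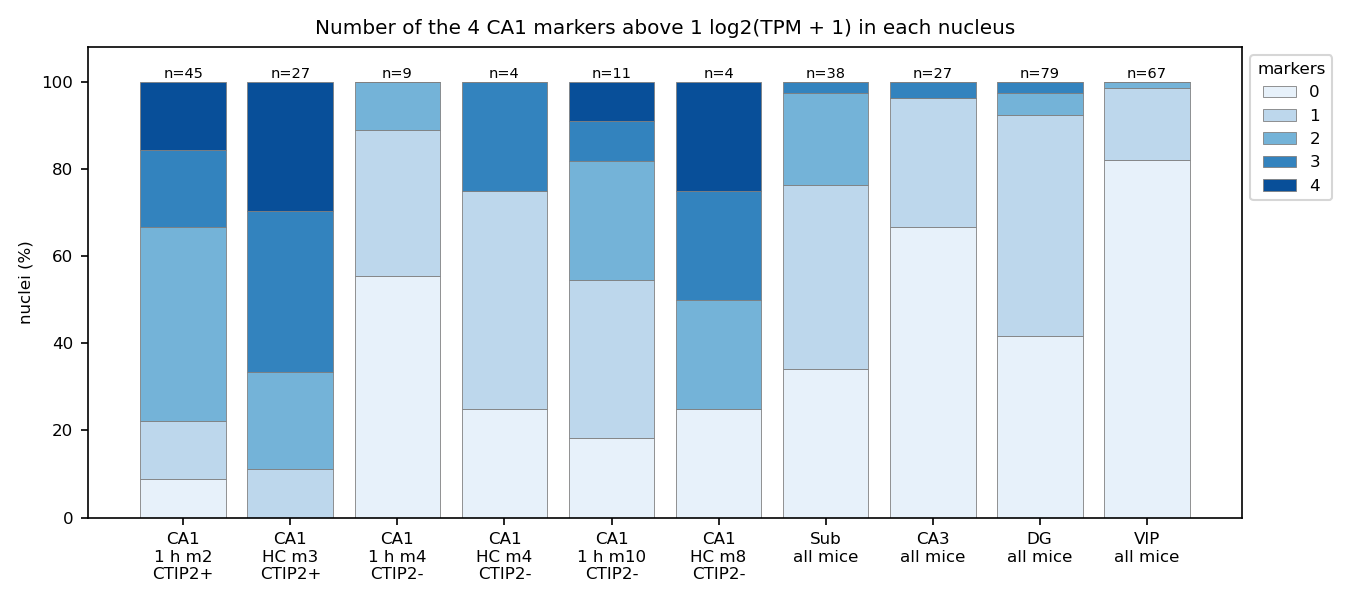
Share of nuclei, in percent, with 0 to 4 of the 4 CA1 markers above 1 log2(TPM+1), by mouse for CA1 nuclei (with the CTIP2 sort) and over all mice for the other types; n is the number of nuclei. In 1 h mouse 4 no nucleus has more than 2 markers, whereas in HC mouse 3 every nucleus has at least 1.

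The next question was how CA1 nuclei differ from each other type. Counts of the nuclei of 1 mouse and type were summed (6 CA1, 3 DG, 6 VIP, 5 Sub and 3 CA3 sums) and tested by quasi-likelihood in edgeR, with p-values adjusted after Benjamini-Hochberg over 18691 genes and a threshold of 0.05. Fold changes are on the log2 scale, with the standard error. The p-values and standard errors measure the spread between these mice, and the spread was wide, with a common dispersion of 1.92. None of the 4 markers passed this test against any type, and Wfs1, Fibcd1 and Pou3f1 passed limma's test on mean levels against VIP (adjusted p = 0.015, 0.00436 and 0.0125).

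Against granule nuclei of the DG, CA1 nuclei were higher in Snhg11, Meg3, the adhesion genes Tenm4 and Nrxn3 and the corepressor gene Runx1t1, and lower in Pdyn, Maml2 and Gad1. Of 18691 genes, 24 were higher in CA1 (0.128%) and 19 lower (0.102%), 43 in all (0.23%). The median log2 fold change over all genes was 0.18. Of the 43, 11 were among the 51 classifier genes. CA1 and DG came from different mice and dates, and both HC mice of the DG were younger than every CA1 mouse, so cell type, date and age cannot be told apart here.

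Snhg11, a small nucleolar RNA host gene, ran from 12.1 to 13.1 in the 6 CA1 mice (median 12.7) and was 6.78, 5.80 and 6.66 in DG. Every CA1 mouse was far above every DG mouse. The log2 fold change was 4.20 ± 0.28 (adjusted p = 2.13e-08). Snhg11 was second only to Malat1 in mean CA1 level, with Meg3 next. Meg3, an imprinted noncoding RNA, was between 11.6 and 12.6 in CA1 and at 9.99, 9.06 and 7.83 in DG (log2 fold change 2.65 ± 0.28, adjusted p = 3.98e-05). In CA3, Sub and VIP mice both genes lay close to their CA1 levels, so the low level was that of DG.

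Adhesion genes gave 2 of 54 list members higher and 0 lower, with a median log2 fold change of 0.04. The 2 were Tenm4 (teneurin 4) and Nrxn3 (neurexin 3), both classifier genes. Tenm4 ran from 5.32 to 7.35 in CA1 with a median of 6.14, and was 0.947, 0.626 and 1.44 in DG (log2 fold change 4.06 ± 0.69, adjusted p = 0.00749). Nrxn3 ran from 6.43 to 9.74 (median 7.65) against 3.70, 3.07 and 3.46 (log2 fold change 1.82 ± 0.36, adjusted p = 0.029). Neither gene overlapped between CA1 and DG mice. Cntnap5c, a contactin-associated protein, ran from 1.54 to 4.65 in CA1 with no count in any DG sum. Against a floor of 3 counts over the DG group it was at least 8550.5-fold higher (adjusted p = 0.00569). It was above 1 in 1 of 79 DG nuclei, which was of a mouse without a DG sum.

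Further genes higher in CA1 were Runx1t1, the suppressor of cytokine signalling Socs2, the phosphatase subunit Ppp2r2b and the membrane-bending protein Fnbp1l. Runx1t1 ran from 2.69 to 4.51 (median 3.67) against 0.298, 0.0971 and 0.178 in DG (log2 fold change 6.86 ± 1.02, adjusted p = 0.00224). Fnbp1l ran from 1.48 to 5.96 (median 4.83) against 0.0689, 0.340 and 0 (log2 fold change 6.54 ± 1.34, adjusted p = 0.0374). Its lowest CA1 level was that of 1 h mouse 4, and without this sum the adjusted p was 0.0421. Socs2 and Ppp2r2b had log2 fold changes of 7.49 ± 1.45 and 6.24 ± 1.18, and their mouse levels did not overlap either.

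On the lower side, Pdyn, the precursor of the dynorphin peptides of granule cells, was at 0 in all 6 CA1 mice and at 2.32, 3.09 and 6.03 in DG. With no count in CA1 and 18830 in DG, it was at least 14059.7-fold lower in CA1 (adjusted p = 0.00091). Maml2, a coactivator of Notch signalling, was at most 0.546 in CA1 and at 1.24, 3.51 and 5.15 in DG (log2 fold change -7.03 ± 1.19, adjusted p = 0.00749). In both genes no CA1 mouse reached the DG range.

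Gad1, which encodes a GABA-synthesizing enzyme, was also lower in CA1, from 0 to 0.307 against 4.70, 2.76 and 1.37 in DG (log2 fold change -9.40 ± 1.66, adjusted p = 0.0118). Its partner Gad2 was at 0.188, 0.215 and 0.13 in DG and at most 0.5 in CA1, and did not pass. Of 7 granule markers, Glis3, a zinc finger factor, was the one called, from 0.108 to 0.74 in CA1 against 2.61, 2.65 and 2.22 (log2 fold change -6.10 ± 1.17, adjusted p = 0.0245). All 7 had a fold change below 0, with a median of -4.51, and limma called 6 lower. Over all 14704 genes in its test, limma called 93 higher (0.632%) and 88 lower (0.598%), 181 in all (1.23%). Adarb2, a protein related to RNA-editing deaminases, and Fam213a were lower as well, at -3.91 ± 0.65 and -3.72 ± 0.71.

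Without the CA1 sum of 1 h mouse 4, 35 genes were called against DG, 31 of them among the 43. BC030499 lost its call (adjusted p = 0.0576) and the other 11 genes picked by size kept theirs. Of 16 genes named here against DG, 5 (Snhg11, Meg3, Runx1t1, Pdyn and Adarb2) kept their calls in all 9 fits without 1 mouse, and 11 lost theirs in at least 1. Tenm4 and Cntnap5c lost theirs without 1 h mouse 3 or HC mouse 6 (adjusted p up to 0.0842 and 0.0621), Gad1 without 1 h mouse 10 or 1 h mouse 3 (up to 0.0658) and Maml2 without 1 h mouse 10 (0.0698). Nrxn3, Fnbp1l and Glis3 kept theirs in 2 of 9 fits, Fam213a and BC030499 in 3 and Socs2 and Ppp2r2b in 4, with adjusted p up to 0.204. Leaving out 1 mouse at a time gave 18 to 47 calls, with 26 without 1 h mouse 4, 22 without 1 h mouse 10, 25 without HC mouse 8, 22 without 1 h mouse 3, 18 without HC mouse 6 and 20 without HC mouse 7.

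Against VIP interneurons, CA1 nuclei were higher in 3 of 8 glutamatergic markers and 4 of 29 calcium signalling genes and lower in 8 of 13 GABAergic markers. Of 18691 genes, 147 were higher (0.786%) and 73 lower (0.391%), 220 in all (1.18%), with a median over all genes of 0.08. Classifier genes made up 18 of the 220. By limma 409 were higher (2.78%) and 165 lower (1.12%), 574 in all (3.9%).

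Of 8 glutamatergic markers 3 were higher in CA1 and 0 lower, with a median log2 fold change of 4.42. Slc17a7, the vesicular glutamate transporter VGLUT1, ran from 5.79 to 7.88 in CA1 (median 7.54) and from 0 to 1.99 in VIP (median 0.551). It was above 1 in 100.0% of CA1 nuclei. The log2 fold change was 6.87 ± 0.96 (adjusted p = 0.000424). Neurod6, a bHLH factor of pyramidal neurons, ran from 4.14 to 7.80 against 0.179 to 1.27 (log2 fold change 5.78 ± 1.07, adjusted p = 0.00729). Neither gene overlapped between the types. In the DG, where Slc17a7 was at 7.55, 7.56 and 6.61, Neurod6 was at 0.367, 0.441 and 0.

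The largest folds on the higher side were those of Nrn1 (neuritin), Rprml, the channel family member Ano3, the synaptic vesicle protein Sv2b, Traip and Fam135b. Nrn1 and Rprml had no count in any VIP sum, and were at least 2224-fold and 1164-fold higher in CA1. Nrn1 ran from 1.23 to 7.51 in CA1 and Rprml from 2.09 to 6.23. Sv2b ran from 4.54 to 6.99 (median 5.16) against 0 to 0.324 in VIP (log2 fold change 10.4 ± 1.25, adjusted p = 7.29e-05). It was also low in DG, at 0.141, 0.107 and 0, and in Sub and CA3 mice it was between 4.92 and 7.27. Sv2b thus separated the pyramidal types from DG and VIP, and its fold against DG did not pass (6.16 ± 1.38, adjusted p = 0.0698).

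Among 29 genes of calcium signalling, 4 were higher and 0 lower, with a median of 1.24. Atp2b1, a plasma membrane calcium pump, ran from 7.39 to 10.2 in CA1 (median 9.07) against 4.16 to 6.50 in VIP (log2 fold change 3.04 ± 0.35, adjusted p = 6.86e-05). Of 26 calcium and sodium channel genes 1 was higher, Cacna1e, the pore subunit of R-type calcium channels, at 6.56 to 8.19 against 3.21 to 4.67 (log2 fold change 3.64 ± 0.45, adjusted p = 0.000112). Of 14 GABA receptor genes Gabra5, the alpha5 subunit of extrasynaptic receptors, was higher (4.75 ± 1.03, adjusted p = 0.0243). These 3 genes had CA1 levels above the VIP range in every mouse.

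Of 14 GABAergic markers, 13 were tested and 8 were lower, with a median of -9.04. Gad1 ran from 0 to 0.307 in CA1 and from 2.04 to 8.35 in VIP (median 8.05, log2 fold change -10.8 ± 1.70, adjusted p = 0.00157). Gad2 was at most 0.5 against at least 6.03 (log2 fold change -9.04 ± 0.81, adjusted p = 2.32e-06). The types did not overlap in either gene.

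Genes of interneuron identity were lower too. Htr3a, the serotonin-gated channel subunit, was at most 0.17 in CA1 and between 3.91 and 8.18 in VIP (log2 fold change -14.0 ± 1.22, adjusted p = 7.29e-05). Npas1, a bHLH-PAS factor, had no count in CA1 and was at least 4799-fold lower. The neuregulin receptor Erbb4 (-12.0 ± 2.09), the growth factor Igf1 (-11.2 ± 1.20), Qpct and the vesicular GABA transporter Slc32a1 completed the 6 picked by size. Nrxn3, which was higher in CA1 than in DG, was lower in CA1 than in VIP, where it ran from 10.8 to 11.5 (log2 fold change -2.11 ± 0.28, adjusted p = 0.000214).

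Without the CA1 sum of 1 h mouse 4, 179 genes were called against VIP, 160 of them among the 220. With only VIP nuclei of the PROX1+CTIP2- sort, 215 were called and 119 were shared. In both fits the 12 genes picked by size kept their calls. VIP nuclei of the PROX1+CTIP2- sort came from batch dates that gave no CA1 sum. Cell type, sort and date therefore cannot be told apart in the fit with these VIP nuclei only. With mouse as a block, 1 gene was called and it was not among the 220. Only 2 mice gave both CA1 and VIP sums, those with Vip at 0. Of 21 genes named here against VIP, 20 kept their calls in all 10 fits without 1 mouse. The other, Gabra5, lost its call without 1 h mouse 2, 1 h mouse 4, 1 h mouse 10 or HC mouse 4, all of which gave CA1 sums (adjusted p up to 0.0847). Leaving out 1 mouse at a time gave 96 to 158 calls, with 100 without 1 h mouse 2, 136 without 1 h mouse 4, 96 without 1 h mouse 10, 144 without HC mouse 8 and 131 without HC mouse 4 of the PROX1+CTIP2- sort.

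CA1 and subiculum nuclei, which lie next to each other in the circuit, differed by the main test in Zbtb20 alone. Of 18691 genes 1 was called against Sub (0.00535%). Zbtb20 is a zinc finger factor of hippocampal pyramidal and granule neurons and a classifier gene. The median over all genes was -0.00068. At an unadjusted p under 0.05 there were 1698 genes, DESeq2 called 495 and limma 31 (0.211%), of which 8 were higher in CA1 (0.0544%) and 23 lower (0.156%). CA1 and Sub came from shared mice, and with mouse as a block edgeR and limma both called 0 genes, so the limma calls against Sub given below were lost.

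Zbtb20, on chromosome 16 from 42875881 to 43642602, had CA1 levels from 3.87 to 8.02 with a median of 6.70. In Sub it was 1.30, 2.73, 1.69, 1.88 and 2.71. Every CA1 mouse lay above every Sub mouse, with a log2 fold change of 4.86 ± 0.73 (adjusted p = 0.0237). The call was lost without the CA1 sum of 1 h mouse 4, whose level was the highest (4.63 on the log2 scale, adjusted p = 0.0649), and with mouse as a block (5.04, adjusted p = 0.999). Of 6 fits without 1 mouse, 1 kept it, that without HC mouse 4 (adjusted p = 0.00126), and in the other 5 the adjusted p ran from 0.0594 to 0.519 with a log2 fold change of at least 4.58. In CA3 it was 9.65, 9.47 and 9.92 and in DG 9.39, 9.17 and 9.33, both above all CA1 mice, while VIP ran from 0.542 to 4.20. CA1 was thus intermediate, and its range was the widest of the pyramidal and granule types.

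Spink8, a serine protease inhibitor gene used as a CA1 marker, ran from 2.19 to 6.93 in CA1 with a median of 4.57 and was 0.450, 1.98, 0.214, 1.44 and 0.860 in Sub. No mouse overlapped, but the log2 fold change of 2.31 ± 1.29 did not pass edgeR's test (adjusted p = 0.695) and passed limma's (0.0414). In CA3 it was 3.25, 1.74 and 6.32, within the CA1 range. Zeb2, a zinc finger homeobox factor, ran from 5.42 to 8.29 in CA1 against 2.78, 3.25, 2.18, 2.72 and 3.55 in Sub (limma adjusted p = 0.00319).

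On the Sub side, Tshz2, a teashirt zinc finger gene and subiculum marker, was 3.10, 4.40, 2.96, 5.21 and 2.78 in Sub and ran from 0.498 to 2.35 in CA1 (median 0.764). The groups did not overlap (limma adjusted p = 0.00319, edgeR adjusted p = 0.743). Of 8 subiculum markers edgeR called 0 and limma 1. The calcium sensor Ncald ran from 1.57 to 4.32 in CA1 against 5.90, 8.69, 5.80, 5.87 and 6.32 (limma adjusted p = 0.0181).

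Against CA3, edgeR called 0 of 18691 genes (0%), with 990 at an unadjusted p under 0.05, 376 by DESeq2 and 94 by limma (0.639%), of which 6 were higher in CA1 (0.0408%) and 88 lower (0.598%). The median log2 fold change over all genes was 0.09. CA1 and CA3 sums shared 3 mice, and with mouse as a block limma called 0 of 11219 genes, so each limma call against CA3 given here was lost. Without the block, limma called 5 of 6 CA3 markers lower in CA1. Grik4, the kainate receptor subunit KA1, ran from 0.802 to 3.82 in CA1 (median 1.55) and was 5.83, 5.35 and 7.85 in CA3 (limma adjusted p = 0.00126). Its highest CA1 level was that of 1 h mouse 4. It was above 1 in 54.0% of CA1 and 100.0% of CA3 nuclei. Channel genes lower by limma were Kcnip2, an auxiliary subunit of A-type potassium channels, at 0.557 to 3.89 against 6.48, 5.66 and 5.19 (adjusted p = 0.00378), and Cacna1c, the L-type calcium channel pore, at 1.49 to 4.86 against 4.97, 6.09 and 5.77 (adjusted p = 0.0369). Neither overlapped.

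Nov, a secreted matrix protein of the CCN family, was on the higher side against CA3. It ran from 1.34 to 3.64 in CA1 (median 3.11) and was 0.527, 0.124 and 0.298 in CA3 (limma adjusted p = 0.019, edgeR adjusted p = 0.922). It overlapped with Sub, where 2.82 was the highest level. Fnbp1l was at 1.19, 0.681 and 0.192 in CA3, below every CA1 mouse (limma adjusted p = 0.0193), and at 7.12, 8.18, 8.13, 5.60 and 8.38 in Sub, where the lowest level overlapped with CA1. Without the CA1 sum of 1 h mouse 4, limma called 124 genes against CA3 and 22 against Sub.

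**Figure D3:**
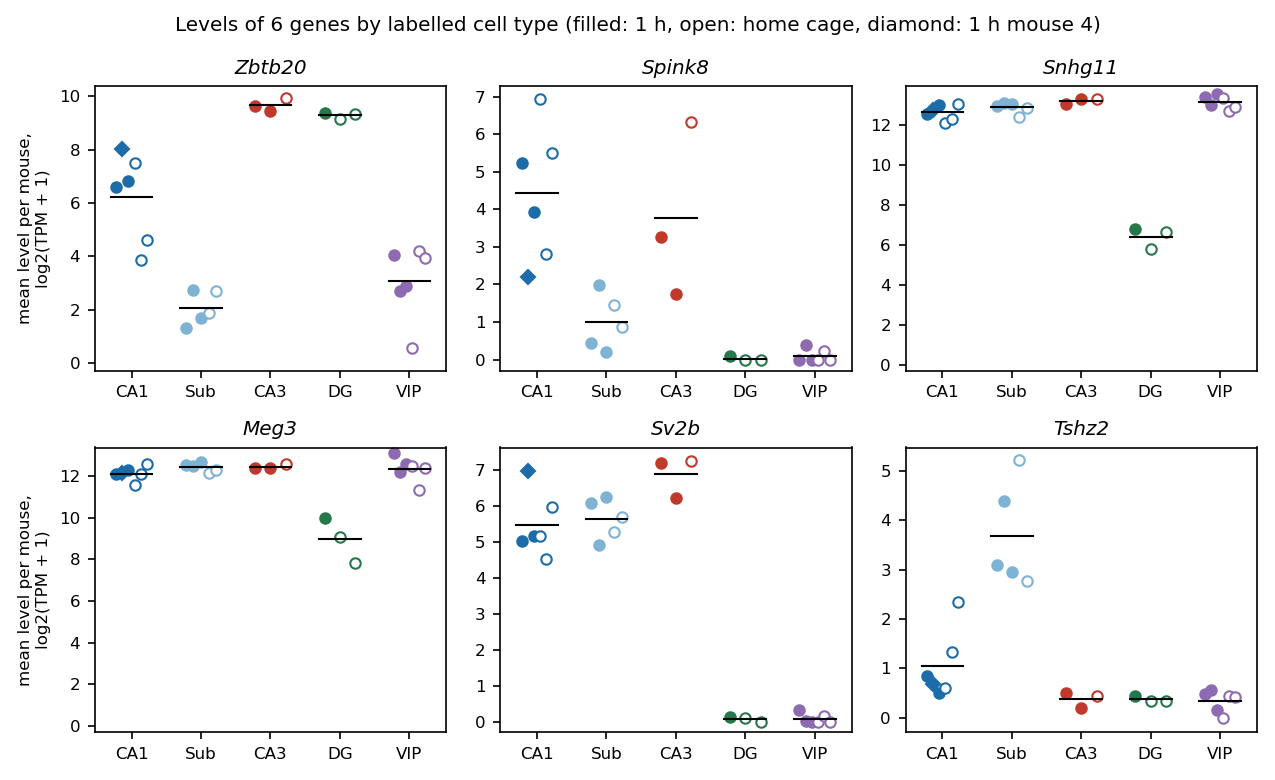
Mean level per mouse in log2(TPM+1) of Zbtb20, Spink8, Snhg11, Meg3, Sv2b and Tshz2 in CA1, Sub, CA3, DG and VIP nuclei; filled points are 1 h mice, open points HC mice, the diamond is 1 h mouse 4 and lines are means over mice. Zbtb20 separates CA1 from Sub, Snhg11 and Meg3 separate CA1 from DG, Sv2b separates it from DG and VIP, and Tshz2 is lower in CA1 than in Sub.

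No gene was called in all 4 comparisons, which follows from the 0 calls against CA3. Among 40198 genes with levels, 0 were above all 17 other sums in every CA1 mouse, and 1 was below, Foxo1, a forkhead factor, with a gap of 0.014 between 0.135, its highest CA1 level, and 0.149. Adarb2 and Gad1 were called lower against both DG and VIP, and Gpr26, an orphan receptor gene, and 1700006F04Rik higher against both. These comparisons share the CA1 sums. Abundant CA1 transcripts that differed little in level between the types included Malat1 at 17.25 ± 0.43 (SD, n = 6) and the AMPA receptor gene Gria2 at 10.52 ± 0.47. Cck, the cholecystokinin precursor, was at 10.72 ± 0.67 in CA1 and at a mean of 5.44 in VIP.

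Markers of GABAergic, granule and astrocyte cells were low in CA1 sums, and those of the subiculum and of oligodendrocytes reached higher levels. For scale, the mean level of the 4 CA1 markers ran from 0.823 to 3.97 over CA1 mice. Thalamus markers reached 1.39, endothelial and choroid markers 1.09 and microglia markers 0.563. The mean level of 14 GABAergic markers, 13 of them with values, ran from 0.375 to 0.858 over CA1 mice and from 3.99 to 5.38 over VIP mice. Mean levels of 7 granule markers were at most 0.795 and those of 5 astrocyte markers at most 0.610. The 6 CA3 markers ran from 0.258 to 1.82 in CA1 against 2.72 to 4.22 in CA3, and 8 subiculum markers from 1.21 to 2.56 against 2.36 to 3.85 in Sub. The 6 oligodendrocyte markers ran from 0.750 to 2.76 in CA1 and overlapped with every other type. Their part in the results was not tested.

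The sort gave a comparison that did not use the labels. All kept nuclei of a mouse and sort were summed, and the PROX1-CTIP2+ sort (2 mice, 86 nuclei, of which 72 were labelled CA1, 10 Sub, 2 VIP, 1 DG and 1 Ivy) was compared with the other sorts by edgeR over 21342 genes. Against PROX1+CTIP2+ nuclei, a granule sort of 3 mice, 62 genes were higher (0.291%) and 12 lower (0.0562%). Against PROX1+CTIP2- nuclei, an interneuron sort of 4 mice, 39 were higher (0.183%) and 11 lower (0.0515%). This sort held 62 VIP, 9 Ivy, 7 thalamus, 1 DG and 1 Sub nuclei by label. Of the 13 nuclei of its HC mouse 5, 6 were labelled VIP and 5 thalamus. Against PROX1-CTIP2- nuclei of 4 mice, a mixture of 28 CA1, 27 CA3, 27 Sub and fewer other nuclei, 0 were called, with 739 at an unadjusted p under 0.05, 246 by DESeq2 and 1 by limma.

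Of 7 CA1-enriched genes other than the 4 markers, 4 were called higher against the granule sort, 1 against the interneuron sort and 0 against the PROX1-CTIP2- sort. Their median log2 fold changes were 11.82, 4.11 and 1.68, beside 0.12, -0.03 and -0.07 over all genes. Spink8 was at 4.20 and 6.64 in the 2 mice of the PROX1-CTIP2+ sort, at 0.0874, 0 and 0 in the granule sort, and at 0.34, 0, 0.22 and 0 in the interneuron sort. Both mice stood far above all 7 others. The log2 fold changes were 12.0 ± 1.71 (adjusted p = 0.00986) and 9.15 ± 1.32 (adjusted p = 0.0197). Against the PROX1-CTIP2- sort, where Spink8 was 2.31, 1.95, 1.33 and 2.99, the fold of 2.03 ± 1.04 did not pass. Mpped1, a metallophosphoesterase, was at 5.09 and 5.64 against 0.02, 0 and 0 in the granule sort, which had 1 count for it in all (adjusted p = 0.0139). Nov was at 2.10 and 3.60 against 0.05, 0.06 and 0 (log2 fold change 10.3 ± 1.75, adjusted p = 0.0299).

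The 4 markers did not pass edgeR's test between sorts. Wfs1, Fibcd1 and Pou3f1 were higher in both mice than in every mouse of the other sorts. The share of all genes with that pattern is not given here. Fibcd1 was at 2.95 and 3.96 in the PROX1-CTIP2+ sort and at most 1.20 elsewhere, and was the gene limma called against PROX1-CTIP2- nuclei (difference 2.78, adjusted p = 0.0121, 0.00755% of genes called). Bcl11b, the gene of the protein sorted on, was at 2.41 and 2.92, at 1.57, 3.61 and 3.78 in the PROX1+CTIP2+ sort, at 0.12, 0.61, 0.17 and 0.13 in the PROX1+CTIP2- sort and at 0.76, 0.81, 1.36 and 0.38 in the PROX1-CTIP2- sort. Its RNA thus followed the CTIP2 sort in all 13 sums. Prox1 RNA was at most 0.18 in both PROX1- sorts and at least 3.29 in both PROX1+ sorts.

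Snhg11 (4.00 ± 0.35, adjusted p = 0.000683) and Tenm4 (3.90 ± 0.54, adjusted p = 0.00881) were higher against the granule sort, as in the labelled nuclei, most of which are the same nuclei. Serotonin receptor Htr2c, muscarinic receptor Chrm3, kainate subunit Grik1 and GABA receptor subunit Gabra3 were called higher in that comparison. Between nuclei labelled CA1 and DG, 0 neuromodulator, 0 glutamate and 0 GABA receptor genes were called. Grik1 was above 1 in 7.0% of CA1-labelled, 0% of DG-labelled and 65.7% of VIP-labelled nuclei. In the same order, Chrm3 was above 1 in 82.0%, 12.7% and 52.2%. Htr2c was above 1 in 29.0%, 7.6% and 37.3%, and Gabra3 in 22.0%, 7.6% and 34.3%. The PROX1-CTIP2+ sort held 2 VIP-labelled and 1 Ivy-labelled nuclei, and their part in these calls was not tested. Against the interneuron sort, Zbtb20 was higher (3.16 ± 0.49, adjusted p = 0.0277), along with the calcium signalling genes Itpka, Itpr1 and Ppp3ca, and Adarb2 was lower (-5.38 ± 0.92, adjusted p = 0.0442), as were Vip and Nrxn3. Snhg11 and Man1a against the granule sort and Itpka against the interneuron sort kept their calls in every fit without 1 mouse. Spink8 lost its call against the granule sort without HC mouse 6 or HC mouse 3 (adjusted p up to 0.0548) and against the interneuron sort without its HC mouse 4, 1 h mouse 2 or HC mouse 3 (up to 0.183). Nov, Htr2c and, against the interneuron sort, Adarb2 lost theirs in every such fit (up to 0.131, 0.141 and 0.312), Mpped1 and Grik1 in 4 of 5, Zbtb20 in 5 of 6, and the other 7 genes named here in 1 or 2. Where 1 mouse of the PROX1-CTIP2+ sort was left out, the remaining one is assumed to vary like the other sorts. Leaving out 1 mouse at a time gave 30 to 150 calls against the granule sort, with 150 without 1 h mouse 3, 48 without HC mouse 6 and 30 without 1 h mouse 2. Against the interneuron sort it gave 4 to 45 calls, with 20 without 1 h mouse 4 and 32 without HC mouse 4, here the mice of the interneuron sort, 18 without 1 h mouse 2 and 4 without HC mouse 3.

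**Figure D4:**
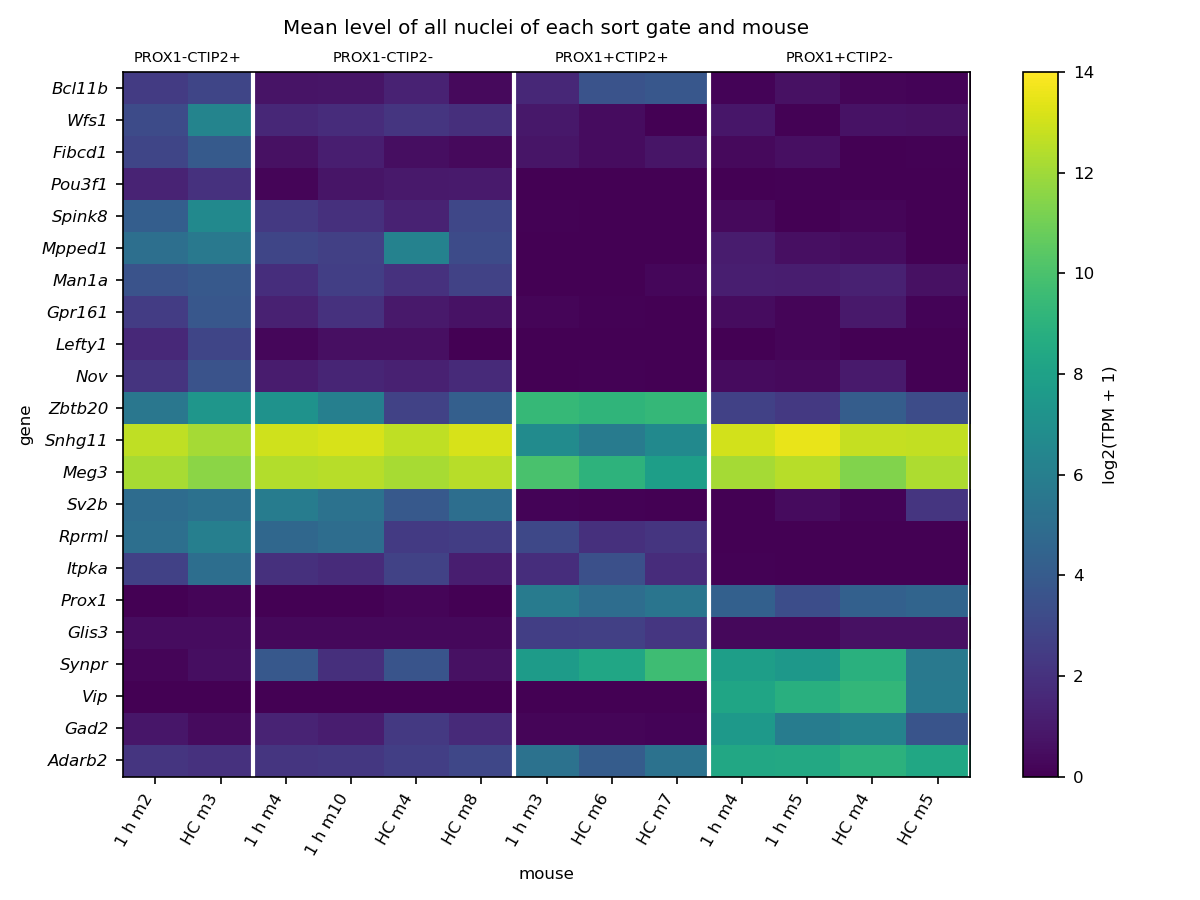
Heat map of mean levels in log2(TPM+1), on a color scale from 0 to 14, of 22 genes (rows) in all nuclei of each mouse (columns) of the 4 sorts. Spink8, Fibcd1 and Wfs1 are highest in the PROX1-CTIP2+ sort among sorts, Prox1 is high only in the PROX1+ sorts, and Snhg11 is low only in the PROX1+CTIP2+ sort.

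Within nuclei labelled CA1, those sorted CTIP2+ (2 mice) and CTIP2- (4 mice) were compared over 16978 genes. edgeR and limma called 0 (0%), 667 genes had an unadjusted p under 0.05 and DESeq2 called 234. Wfs1 was 3.74 and 6.73 in the CTIP2+ mice and ran from 1.75 to 2.99 in the CTIP2- mice (log2 fold change 2.17 ± 0.56, adjusted p = 0.615). Dcn, which encodes the proteoglycan decorin, went the other way, at 1.44 and 0.421 in the CTIP2+ mice and from 2.19 to 4.29 in the CTIP2- mice (log2 fold change -2.32 ± 0.66, adjusted p = 0.615). The mice did not overlap in either gene, which carries little weight with 2 mice against 4, and neither passed. The share of all genes that stood apart is not given here. All 4 CA1 markers and all 7 other CA1-enriched genes had folds above 0, with medians of 1.32 and 1.41. The median over all genes was -0.07. Of 7 genes listed for CA1 axes, 2 had folds above 0 and 5 below. The part of 1 h mouse 4 in these folds was not tested.

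In single CA1 nuclei, Wfs1 alone was above 1 in 50, Dcn alone in 14, both in 7 and neither in 29. In 1 h mouse 2, Wfs1 alone was seen in 23 nuclei, Dcn alone in 10 and both in 0 of 45. In HC mouse 3 the counts were 23, 0 and 2 of 27. In the 28 nuclei of the 4 mice of the PROX1-CTIP2- sort, Wfs1 alone was seen in 4, Dcn alone in 4, both in 5 and neither in 15, and each of these mice had at least 1 nucleus with both. Of the 7 nuclei with both genes, 5 were thus of this sort. All 10 nuclei with Dcn alone in the PROX1-CTIP2+ sort were thus from 1 mouse. Dropout of a transcript and its absence cannot be told apart in 1 nucleus.

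**Figure D5:**
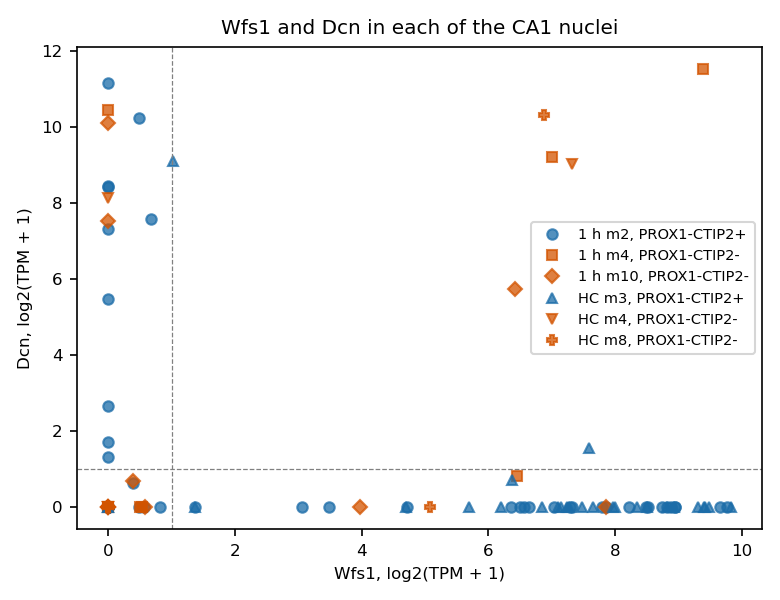
Wfs1 (horizontal) and Dcn (vertical) in log2(TPM+1) in each of the 100 CA1 nuclei, blue for PROX1-CTIP2+ and orange for PROX1-CTIP2- sorts, with a symbol for each mouse; dashed lines mark 1. Most nuclei lie along 1 of the axes, and 7 lie above both lines.

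CA1 nuclei of the 1 h mice had also been sorted by FOS protein. Sums of 1 h FOS+ and FOS- nuclei of the same 3 mice were compared over 14990 genes, and edgeR and limma called 0 (0%), with 653 at an unadjusted p under 0.05 and 221 by DESeq2. Median totals in FOS+ and FOS- nuclei were 1248769.5 and 1362135 in 1 h mouse 2 and 1983697.5 and 1343207 in 1 h mouse 4. In 1 h mouse 10 they were 1143683 and 475199.5. FOS- nuclei with high Arc were kept, and edgeR also called 0 genes without them. Bdnf, the neurotrophin gene induced by activity, was 5.97, 7.01 and 6.18 in FOS+ nuclei, 1.73, 2.98 and 1.05 in FOS- nuclei and 1.95, 0.24 and 1.60 in HC nuclei. The nuclear receptor gene Nr4a2 was 6.21, 6.55 and 5.69 against 1.82, 0.53 and 2.18. FOS+ mice lay above FOS- mice in both genes (log2 fold changes 3.73 ± 1.26 and 3.92 ± 1.30, adjusted p = 1 for both). Of 15 activity-induced genes 14 were tested and 11 had higher levels in every FOS+ than in every FOS- sum, beside 5.57% of all genes. None of the 4 CA1 markers differed in this way, with a median log2 fold change of -0.83.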

How the data were processed

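Nuclei were sorted from the hippocampus, made into SmartSeq2 libraries and sequenced as single-end reads. The authors aligned reads to mm10 with RSEM and Bowtie (versions not given in the sources used here). The deposited table of expected counts held whole numbers, and the authors also deposited log2(TPM+1) values per gene. Expected counts of at least 2 kept nuclei of 1 mouse and type were summed and compared with edgeR 4.0.16 (TMM, filterByExpr, quasi-likelihood test, Benjamini-Hochberg adjustment at 0.05, cell type as the only term). Alternatives were limma 3.58.1 on mean log2(TPM+1) per mouse, DESeq2 1.42.0, other filters, left-out mice and mouse as a block. The main edgeR fits were tested on simulated counts. Mouse 4 occurs on 2 batch dates in both exposures and was counted as separate animals. The same animal gave CA1 and Sub sums in 5 mice, CA3 in 3 and VIP in 2, and mean correlations of their deviations from group means within mice were 0.042, 0.059 and -0.004. The members, gene lists and tests were chosen with earlier results of these data known. Named genes were the markers, the lists, and for each comparison the 6 largest folds each way among calls whose mice did not overlap and whose mean level reached 3 in the higher type, leaving out predicted genes. Meg3, Foxo1, Gpr26, 1700006F04Rik, Malat1 and Cck were chosen after their values were seen. Counts depend on depth, and the low total counts of VIP nuclei make absent genes less certain there. Rows without a gene value (30 of 42802 in the count table) were left out. Expression columns of the other experiments of the series were not used here, and some genes the rule names are not reported here.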

Additional observations from a re-analysis of the deposited data

Results flagged for a closer look

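Over 42 genes and the types with 4 to 6 mice, 93 groups of mouse levels were looked at for 1 mouse far from the rest by Dixon's test at 95%, and 7 stood out, where chance flags about 1 in 20 groups. Levels are means of log2(TPM+1) per mouse. In CA1, Fnbp1l was lowest in 1 h mouse 4 at 1.48, with the others from 4.56 to 5.96, and Fam135b was highest in HC mouse 8 at 6.60, with the others from 2.55 to 3.93. In Sub, 1 h mouse 4 was highest for Fibcd1 at 1.34, with the next at 0.165, and for Nrn1 at 7.77, with the others from 2.70 to 3.82. In VIP, HC mouse 4 of the PROX1-CTIP2- sort was lowest for Adarb2 at 6.40, with the others from 8.73 to 9.83, and highest for Mpped1 at 5.23, with the next at 1.04. Bcl11b in VIP was highest in 1 h mouse 2 at 2.19, with the next at 0.857. These VIP sums are the ones with Vip at 0, and 1 h mouse 4, which stood out for Fnbp1l, Fibcd1 and Nrn1, is the one whose CA1-labelled nuclei lacked Bcl11b and Pou3f1. Whether label or cell type accounts for these values was not tested.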

How the results depend on the processing

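Calls depended on the test and on few mice. DESeq2 called 625 genes against DG, 1315 against VIP, 495 against Sub and 376 against CA3, and limma 181, 574, 31 and 94. Between sorts, DESeq2 called 975 against PROX1+CTIP2+, 875 against PROX1+CTIP2- and 246 against PROX1-CTIP2- nuclei, and limma 328, 523 and 1. DESeq2 called 234 genes between CTIP2+ and CTIP2- CA1 nuclei and 221 between FOS+ and FOS-. Sums of at least 5 nuclei gave 65, 144 and 7 calls against DG, VIP and Sub. With CA1 nuclei of the PROX1-CTIP2+ sort only there were 7, 56 and 0, and of the PROX1-CTIP2- sort only 20, 86 and 0. FOS- nuclei only gave 0 against Sub and 24 against PROX1+CTIP2- nuclei, and leaving out FOS- nuclei with high Arc gave 0 against Sub. With only both types in the fit there were 85 against VIP and 0 against Sub. With mouse as a replicate block the calls against VIP were 1 by edgeR, 0 with mouse 4 of both dates merged and 0 by limma, and against Sub 0 by both tools. Against CA3 the block took limma's calls from 94 to 0, while edgeR called 0 with and without it, as between FOS+ and FOS- nuclei. No paired fit was possible against DG, which shared no mouse with CA1. Chosen after seeing the data, leaving out the CA1 sum of 1 h mouse 4 gave 0 calls against Sub by edgeR, and limma then called 162, 476, 22 and 124 against DG, VIP, Sub and CA3. Leaving out 1 mouse gave 18 to 47 calls against DG, 96 to 158 against VIP, 0 to 2 against Sub, 30 to 150 against PROX1+CTIP2+ and 4 to 45 against PROX1+CTIP2- nuclei. Against Sub, Pou3f1 ran from -0.15 without HC mouse 8 to 1.53 without 1 h mouse 4 and Wfs1 turned to -0.38 with CA1 nuclei of the PROX1-CTIP2- sort only. The cause of these changes was not tested. The adjusted p of Zbtb20 against Sub ran from 3.95e-12 to 0.999.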
